A study of Mus musculus with 12 samples.

Results

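The 5 genes described here, Maats1, Hebp1, Cyp2b23, Cep19 and Atf7ip, were selected on their measured difference between 2 lines of mouse induced pluripotent stem cells, where they stood among the genes farthest apart. All probes that carried their symbols in the platform annotation were taken, which gave 7 of the 45281 probes on the array: 1 each for Maats1, Hebp1 and Cep19 and 2 each for Cyp2b23 and Atf7ip. The study compared stem cells of the embryo (ESC), fibroblasts of the embryo (MEF) and cells reprogrammed with 4 factors (iPS4F) or with 6 (iPS6F), with 3 Illumina bead arrays per group. ESC came from OG2 mice and were labelled a mixture of both sexes; MEF were OG2 and male. Both iPS lines were male and had received Oct4, Sox2, Klf4 and c-myc, and iPS6F had received Brg1 and Baf155 as well. Both proteins belong to BAF, an ATP-driven machine that moves nucleosomes. OG2 mice carry a green fluorescent reporter of Oct4. No age or treatment was labelled. The labels say neither whether each iPS line was 1 clone nor whether the numbered arrays came from separate cultures, so p-values measure the spread between these arrays, which may be technical.

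The members work in different parts of the cell. Cep19 sits at the centrosome and at the base of the primary cilium, where it helps cargo enter intraflagellar transport, and its loss causes obesity in mice. Maats1, also named Cfap91, builds the radial spokes of motile cilia and sperm tails in mouse, human and green algae. Hebp1 binds heme and related porphyrins in the cytosol. Cyp2b23 belongs to family 2 of the cytochrome P450 enzymes, heme proteins that oxidise drugs and steroids, chiefly in liver. Atf7ip holds the histone methyltransferase Setdb1 in the nucleus, and in mouse embryonic stem cells the pair silences retroelements through methylation of histone H3 at lysine 9.

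The members lie on 3 autosomes in the RefSeq annotation of GRCm38.p6. Cep19 (chr16:32099789-32108068) and Maats1 (chr16:38297754-38341860) lie 6.2 Mb apart on chromosome 16, measured between their lowest coordinates. Hebp1 (chr6:135137519-135168215) and Atf7ip (chr6:136518789-136610850) lie 1.38 Mb apart on chromosome 6, measured in the same way. Cyp2b23 lies at chr7:26665227-26686430. Promoter windows from RefSeq, 250 bases before to 50 after the start, were found for all 5 members. Those of Cep19 (plus strand, chr16:32099539-32099838), Maats1 (minus strand, chr16:38341811-38342110) and Atf7ip (plus strand, chr6:136518601-136518900) are printed, the first pair because they share a motif form and the last because it holds a pair of motifs that Oct4 reads. Capitals mark the motif matches on either strand.
Cep19: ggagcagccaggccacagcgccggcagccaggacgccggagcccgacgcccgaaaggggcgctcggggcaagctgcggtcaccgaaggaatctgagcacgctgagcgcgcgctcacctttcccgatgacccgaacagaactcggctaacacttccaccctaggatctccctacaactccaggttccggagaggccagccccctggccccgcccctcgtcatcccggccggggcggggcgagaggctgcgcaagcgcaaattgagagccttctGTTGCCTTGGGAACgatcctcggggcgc
Maats1: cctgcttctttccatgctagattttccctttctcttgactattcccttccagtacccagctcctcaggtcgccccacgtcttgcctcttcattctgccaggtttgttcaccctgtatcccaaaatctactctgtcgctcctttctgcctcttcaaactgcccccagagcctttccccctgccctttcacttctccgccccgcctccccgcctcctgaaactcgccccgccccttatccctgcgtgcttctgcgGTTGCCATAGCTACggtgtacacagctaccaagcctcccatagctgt
Atf7ip: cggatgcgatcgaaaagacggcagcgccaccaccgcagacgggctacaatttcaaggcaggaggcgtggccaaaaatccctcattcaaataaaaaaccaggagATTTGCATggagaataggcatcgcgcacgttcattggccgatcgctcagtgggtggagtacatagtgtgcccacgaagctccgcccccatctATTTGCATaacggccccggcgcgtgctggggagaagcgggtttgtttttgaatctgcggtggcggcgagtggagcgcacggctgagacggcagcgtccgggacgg

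The capitals in Cep19 and Maats1 are a form of the X-box read by the RFX factors of cilium genes: GTTGCC, 3 bases of any kind, G, 2 bases of any kind and AC. It lay at bases 23 to 36 after the start of Cep19 and 4 to 17 after that of Maats1. This form occurred in 1.05% of 32851 promoter windows, and its opening, GTTGCC, which lies within it, in 12.5%. The letters of the longer form were chosen after the promoters of the members had been read, so the pair of matches carries no weight. The capitals in Atf7ip are the octamer ATGCAAAT on the minus strand, at bases -147 to -140 and -55 to -48, and 1.74% of the windows held at least 1. Both octamers lie in the 197 bases that this window shares with that of Gm44140, a gene on the minus strand. Hebp1 had the E-box CACGTG at bases -58 to -53, as did 7.15% of the windows. The windows of Cep19 and Atf7ip had 30 and 29 CG dinucleotides and those of Hebp1 and Maats1 17 and 11, where the median window had 7 and that of Cyp2b23 had 2. A match describes the letters only, and binding was not measured.

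The arrays of a group were alike, with correlations across probes of at least 0.989. The mean raw intensity ran from 139 to 237 over the 12 arrays, from 213 to 237 in iPS4F and from 177 to 209 in iPS6F. All 10 pluripotency markers were detected on every ESC and iPS array, and their summed level ran from 14.26 to 14.57 there against 8.58 to 8.89 in MEF (log2). Of 10 fibroblast markers, 8 were detected on no ESC array, 7 on no iPS6F array and 5 on no iPS4F array. Their summed level was 7.60 to 7.65 in ESC, 7.70 to 7.76 in iPS6F and 7.90 to 7.97 in iPS4F, against 15.05 to 15.26 in MEF. Summed trophectoderm markers (4 measured) ran from 9.07 to 9.11 in ESC and from 10.10 to 10.22 in the iPS lines. Most of that sum was Tfap2c, at 8.90 in ESC, 10.06 in iPS4F and 10.03 in iPS6F. Eomes (4.49, 4.58 and 4.57) and Krt7 (4.64, 4.97 and 5.15) were dim, and Gata3 was lower in the iPS lines (4.46, 4.31 and 4.34). Summed macrophage markers (5 measured) ran from 6.48 to 6.71 in ESC and the iPS lines, with none detected on all arrays of a group, and from 9.78 to 10.29 in MEF. Summed primitive endoderm markers (3 measured) ran from 7.10 to 7.33 in ESC, 6.57 to 6.93 in iPS4F and 6.83 to 7.26 in iPS6F. The part of these shifts in the results on the members was not tested. In these bulk samples, fewer cells that express a gene and less RNA per cell cannot be told apart.

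Intensities were corrected for background, quantile-normalized and put on a log2 scale, and a probe was kept if it was detected (detection p under 0.05) on every array of at least 1 group. All 7 probes of the members were among the 17563 kept. The brighter Cyp2b23 probe passed only through the iPS lines, the second Cyp2b23 probe only through iPS6F and the second Atf7ip probe only through MEF. Levels are log2 intensities, and the error of a difference is its standard error (SE) in limma's fit over all kept probes. The difference between the iPS lines chose the members and is given as a description, with no test, as are the differences of each line from ESC.

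Cep19 lay below ESC in both iPS lines, and farther below in iPS6F. Its level was 7.78, 8.04 and 7.89 on the ESC arrays, 6.90, 6.99 and 6.84 in iPS4F, 5.38, 5.15 and 5.61 in iPS6F and 7.32, 7.32 and 7.28 in MEF. No pair of groups overlapped, and the order from low to high was iPS6F, iPS4F, MEF and ESC. The probe was detected on all 12 arrays. From ESC, iPS4F differed by -0.99 ± 0.12 on the log2 scale, 1.99-fold lower, and iPS6F by -2.52 ± 0.12, 5.74-fold lower. Between the lines the difference was -1.53 ± 0.12, 2.89-fold. Cep19 thus had both lines on the same side of ESC, below MEF as well.

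Maats1 stood apart from ESC in iPS6F. Its level was 5.49, 5.16 and 5.51 in ESC, 5.20, 4.97 and 5.16 in iPS4F and 6.33, 6.67 and 6.72 in iPS6F. The MEF values of 4.21, 4.19 and 4.22 were not above background on any array. The ESC and iPS4F arrays overlapped, and all iPS6F arrays lay above both. The iPS6F mean exceeded that of ESC by 1.19 ± 0.13, 2.28-fold, whereas iPS4F differed from ESC by -0.28 ± 0.13. Between the lines the difference was 1.46 ± 0.13, 2.76-fold.

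Cyp2b23 had the same order of groups at a dimmer signal. Its brighter probe read 4.77, 4.76 and 4.44 in ESC, 4.45, 4.67 and 4.44 in iPS4F and 5.85, 5.30 and 5.65 in iPS6F. In MEF it read 4.26, 4.15 and 4.21 and was detected on no array. In ESC it was detected on 2 of 3 arrays. The ESC and iPS4F arrays overlapped, and the iPS6F arrays lay above both. The iPS6F mean was higher than that of ESC by 0.94 ± 0.14, and iPS4F differed from ESC by -0.14 ± 0.14. The lines differed by 1.08 ± 0.14, 2.11-fold.

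The second Cyp2b23 probe had a smaller difference. It read 4.39, 4.29 and 4.40 in iPS4F and 4.58, 4.82 and 4.46 in iPS6F, a difference of 0.26 ± 0.13 that ranked 2681 in size among the 17563 probes. ESC read 4.22, 4.10 and 4.54, which overlapped both lines, and MEF 4.27, 4.15 and 4.08. Detection grew scarcer from iPS6F, with 3 of 3 arrays, to iPS4F with 2, ESC with 1 and MEF with none. Genes of the mouse Cyp2b cluster are close copies of each other. Neither probe's sequence was used here, so their signal may hold RNA of another Cyp2b gene, and the name is uncertain.

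Hebp1 departed from ESC in both lines, in opposite directions. ESC read 8.32, 8.29 and 8.33 and MEF 8.24, 8.30 and 8.35, which overlapped. The iPS4F arrays read 7.53, 7.65 and 7.65, all below both, and the iPS6F arrays 8.93, 8.79 and 8.65, all above both. From ESC, iPS4F differed by -0.70 ± 0.10 and iPS6F by 0.48 ± 0.10. The lines differed by 1.18 ± 0.10, 2.27-fold. Where arrays were scaled to a common median instead, iPS4F stood level with ESC (0.000236 on the log2 scale) and iPS6F above it by 0.78. That scaling moved the median of all probes by 0.41 in iPS4F minus ESC and by 0.14 in iPS6F minus ESC, and with the median of all probes centred the Hebp1 differences were -0.44 and 0.58.

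Atf7ip departed from ESC in iPS4F. Its brighter probe read 6.58, 6.63 and 6.54 in ESC and 6.45, 6.72 and 6.33 in iPS6F, which overlapped. The iPS4F arrays read 8.23, 7.82 and 7.72, above all others, and the MEF arrays 7.22, 6.75 and 7.17. The iPS4F mean was higher than that of ESC by 1.34 ± 0.15, 2.53-fold, and iPS6F differed from ESC by -0.09 ± 0.15. The lines differed by -1.43 ± 0.15, 2.69-fold. The summed fibroblast markers were 7.90 to 7.97 in iPS4F and 7.70 to 7.76 in iPS6F, and their part in this difference was not tested.

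The second Atf7ip probe did not separate the lines. It read 5.02, 4.36 and 4.75 in iPS4F, 4.37, 4.45 and 4.20 in iPS6F, 4.78, 4.41 and 4.43 in ESC and 4.74, 4.58 and 4.65 in MEF. All 3 MEF arrays were detected, and 1 ESC, 2 iPS4F and 2 iPS6F arrays. The difference between the lines was -0.37 ± 0.15, with overlapping arrays, and ranked 918 among the 17563 probes. The probes of Atf7ip thus shared the sign of the difference and not its size, and the dimmer one was undetected on some ESC, iPS4F and iPS6F arrays.

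**Figure D1:**
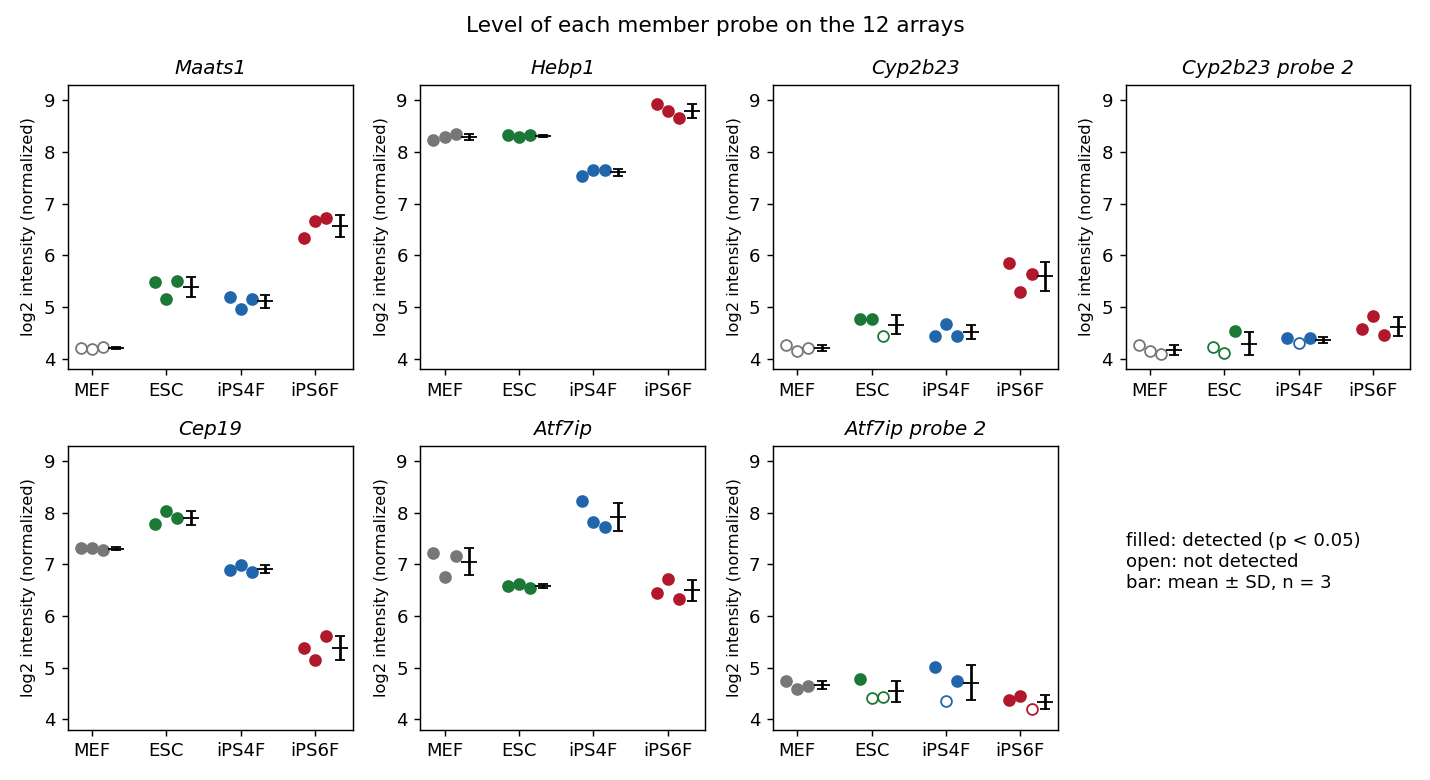
Normalized log2 intensity (vertical axis) of each of the 7 probes on the 12 arrays, by group; filled points were detected, open points were not, and bars give the mean ± SD of 3 arrays. The iPS6F arrays lie above all others for Maats1, Hebp1 and the brighter Cyp2b23 probe and below all others for Cep19, and the iPS4F arrays lie above all others for the brighter Atf7ip probe.

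By the kept probe of highest mean per gene, 14 of 10096 genes were at least 2-fold apart between the lines, and the 5 members were among them. In size of difference Cep19 ranked 3, Maats1 4, Atf7ip 5, Hebp1 10 and Cyp2b23 13. The rule named no threshold; Msmo1 (-2.36) and Rps3 (2.11) lay farther apart than any member, and of the members Cyp2b23 lay just inside 2-fold, followed by Lefty1 at -1.04 and, outside it, Eno2 at 0.98. Of the 14 genes, iPS4F was the line farther from ESC in 9 and iPS6F in 5. Among the members, iPS6F was the farther line for Cep19, Maats1 and Cyp2b23 and iPS4F for Hebp1 and Atf7ip. For Hebp1 this turned under median scaling, with iPS4F at 0.000236 and iPS6F at 0.78 from ESC, and when centred, at -0.44 and 0.58. Both differences share the ESC arrays.

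**Figure D2:**
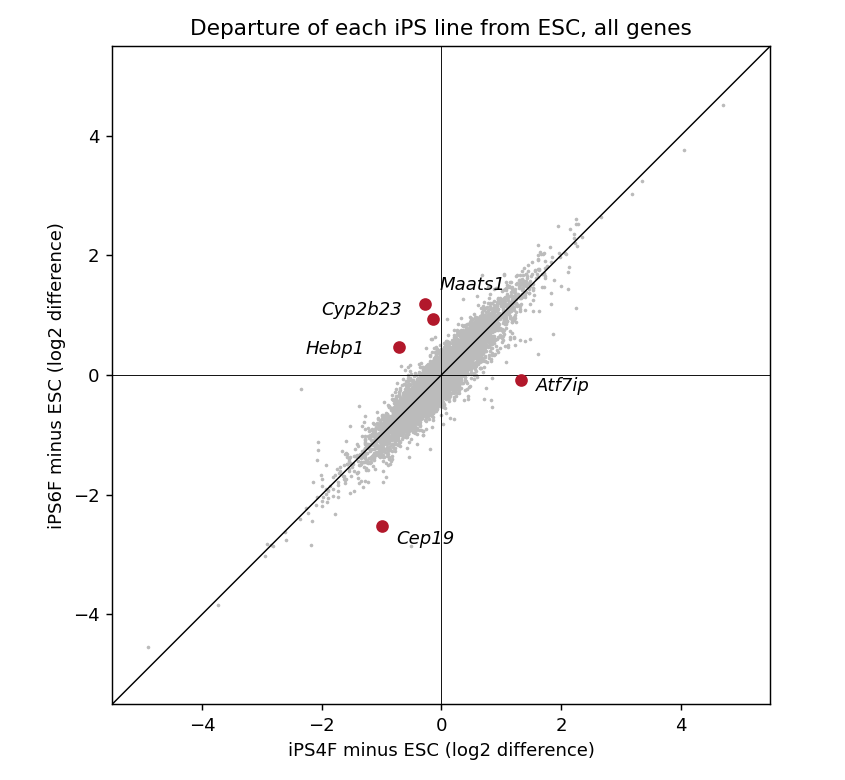
Log2 difference of iPS4F from ESC (horizontal axis) against that of iPS6F from ESC (vertical axis) for 10096 genes, each a grey point, with the members in red; the diagonal marks equal departure, and both axes share the ESC arrays. Cep19 lies below the diagonal at -0.99 and -2.52, Atf7ip at 1.34 and -0.09, and Maats1, Cyp2b23 and Hebp1 lie above it with iPS4F below and iPS6F above ESC.

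Array by array, the iPS4F and ESC values did not overlap for 3 of the 7 probes, those of Hebp1, Cep19 and the brighter Atf7ip probe, against 49.7% of all kept probes. The iPS6F and ESC values did not overlap for 4 of 7, those of Maats1, Hebp1, Cep19 and the brighter Cyp2b23 probe, against 51.6% of all. These shares were near the background.

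ESC were compared with MEF to ask how the members differ between fibroblasts and embryonic stem cells. The difference itself uses no array that chose the members. Its SE and p-value come from the fit over all groups, so they also draw on the spread of the iPS arrays. The iPS lines alone brought the Cyp2b23 probes past the detection filter. ESC were higher than MEF in Maats1 (1.18 ± 0.13, adjusted p = 3.82e-07, at least 1.97-fold), in Cep19 (0.59 ± 0.12, 0.000328) and in the brighter Cyp2b23 probe (0.45 ± 0.14, 0.00907, at least 1.19-fold). Atf7ip was lower in ESC (-0.47 ± 0.15, adjusted p = 0.0127), and Hebp1 differed by 0.02 ± 0.10 (0.896). The second Cyp2b23 probe (0.12, adjusted p = 0.419) did not pass. The second Atf7ip probe differed by -0.12, given without a call because MEF alone brought it past the detection filter. The bounds set the brighter group against the lowest detected signal, since MEF were undetected. Apart from the second Atf7ip probe, 4 probes thus passed, and those of Hebp1 and the second Cyp2b23 probe did not. Over all probes tested, 70.8% passed. The calls of Cep19 and Cyp2b23 ended under median scaling (0.14, adjusted p = 0.519, and 0.31, 0.0940), and that of Atf7ip without MEF array 1 (0.0642) or 3 (0.0550).

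The mean of both iPS lines was compared with ESC to ask what the lines shared. That mean is orthogonal to the difference that chose the members. Cep19 was lower in the iPS lines (-1.76 ± 0.10, adjusted p = 3.61e-09), and the call held under every alternative run, between -2.22 and -1.14. Atf7ip was higher by 0.63 ± 0.13 (0.00103) and Maats1 by 0.46 ± 0.11 (0.00297). The brighter Cyp2b23 probe differed by 0.40 ± 0.12 and the second by 0.20. Both are given without a call, because the iPS lines alone brought them past the detection filter. In Atf7ip, Maats1 and the brighter Cyp2b23 probe the mean joins 1 line that overlapped ESC with 1 that did not. Hebp1 differed by -0.11 ± 0.09 (adjusted p = 0.311), the mean of lines on either side of ESC. The second Atf7ip probe (-0.02, adjusted p = 0.942) did not pass. Apart from the Cyp2b23 probes, those of Cep19 and Maats1 and the brighter Atf7ip probe thus passed. The Hebp1 probe and the second Atf7ip probe did not. Over all probes, 48.7% passed. Without ESC array 3 the difference of the brighter Cyp2b23 probe was 0.29.

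Against MEF, the mean of the iPS lines was higher in Maats1 (1.64 ± 0.11, adjusted p = 7.38e-10, at least 2.70-fold). The brighter Cyp2b23 probe differed by 0.85 ± 0.12 (at least 1.57-fold) and the second by 0.32. Both are given without a call, because the iPS lines alone brought them past the detection filter. Cep19 was lower (-1.16 ± 0.10, adjusted p = 2.76e-08), so it lay under both the fibroblast and the embryonic stem cell level. Hebp1 (-0.10 ± 0.09, adjusted p = 0.315) and the brighter Atf7ip probe (0.16 ± 0.13, 0.275) did not pass. The second Atf7ip probe differed by -0.13, given without a call because MEF alone brought it past the filter. Of the probes left, those of Maats1 and Cep19 thus passed and those of Hebp1 and Atf7ip did not. Over all probes, 79.3% passed.

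**Figure D3:**
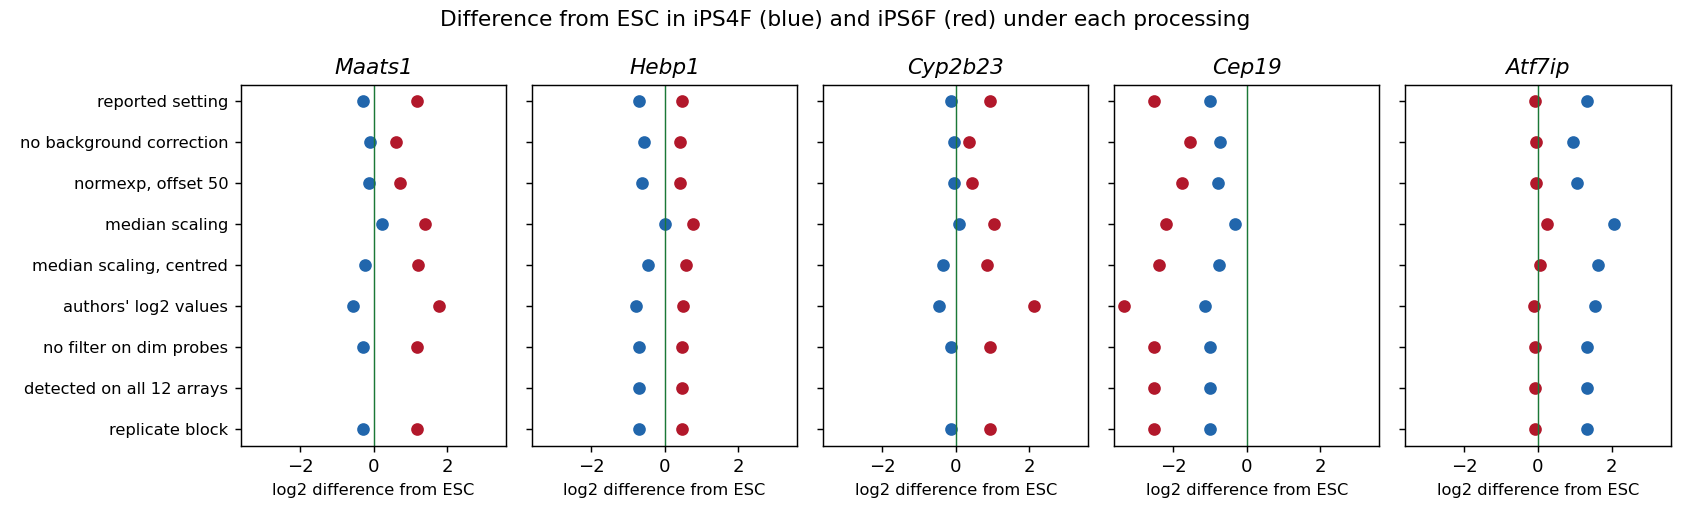
Log2 difference from ESC (horizontal axes, ESC at the green line) of iPS4F in blue and iPS6F in red for the members' brighter probes, under the reported processing and 8 alternatives (rows); Maats1 and Cyp2b23 have no point where a probe had to be detected on all 12 arrays. The order of the lines held in every row with a point. Under median scaling, iPS4F moved to the other side of ESC for Maats1 (0.22) and Cyp2b23 (0.10) and iPS6F for Atf7ip (0.25). For Hebp1, iPS4F moved level with ESC in that row (0.000236).

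The measured genes nearest to the members were examined for the same difference, 5 on each side. Over all genes, 0.248% were higher and 0.545% lower in iPS6F than in iPS4F at an adjusted p under 0.05. Of the 10 neighbours of Cep19, Pigx was lower in iPS6F. Pigx encodes a subunit of the enzyme that adds the first mannose to GPI anchors, and lies at chr16:32084416-32099727 on the minus strand. Its start is 62 bases from that of Cep19, so the genes run apart from each other and their promoter windows share 161 bases.

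Pigx read 9.55 ± 0.16 in iPS4F, 8.80 ± 0.17 in iPS6F, 9.95 ± 0.12 in ESC and 9.49 ± 0.25 in MEF (SD, n = 3). The lines differed by -0.75 ± 0.14 (SE, adjusted p = 0.0185), and the mean of the iPS lines was below ESC by -0.77 (6.40e-05). Cep19 and Pigx thus had the same order, with ESC highest, iPS4F next among the pluripotent groups and iPS6F lowest. The Pigx call between the lines ended in 4 of 8 other settings, with adjusted p up to 0.294, and on leaving out iPS4F array 1 or 2 or iPS6F array 1 or 3 (0.0563 to 0.129), while its difference stayed between -1.16 and -0.66. The other 9 neighbours of Cep19 ranged from -0.23 to 0.45 and did not pass.

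Near Hebp1, Emp1 was higher in iPS6F. Emp1, a membrane protein with 4 spans in the same family as PMP22, lies at chr6:135362550-135383173, 225 kb from Hebp1 by lowest coordinates. It read 6.96 ± 0.10 in iPS4F, 7.66 ± 0.20 in iPS6F, 7.57 ± 0.14 in ESC and 12.98 ± 0.09 in MEF. The lines differed by 0.70 ± 0.12 (adjusted p = 0.0113), in the direction of Hebp1 and against that of Atf7ip. Emp1 is also among the 10 neighbours of Atf7ip, at -1156 kb. The call ended in 3 of 8 other settings (adjusted p up to 0.505) and without iPS6F array 1 (0.0563). Hebp1 and Atf7ip were among each other's neighbours and lay on opposite sides, at 1.18 and -1.43. Between them no further measured gene but Emp1 and Fam234b (-0.03) was found. None of the 10 neighbours of Maats1 (-0.21 to 0.40) or of Cyp2b23 (-0.18 to 0.56) passed. By lowest coordinates, the neighbours of Maats1 lay at -788 to 227 kb. The nearest measured gene lay 493 kb from Cyp2b23 and 285 kb from Atf7ip, so genes closer to these members were not examined.

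**Figure D4:**
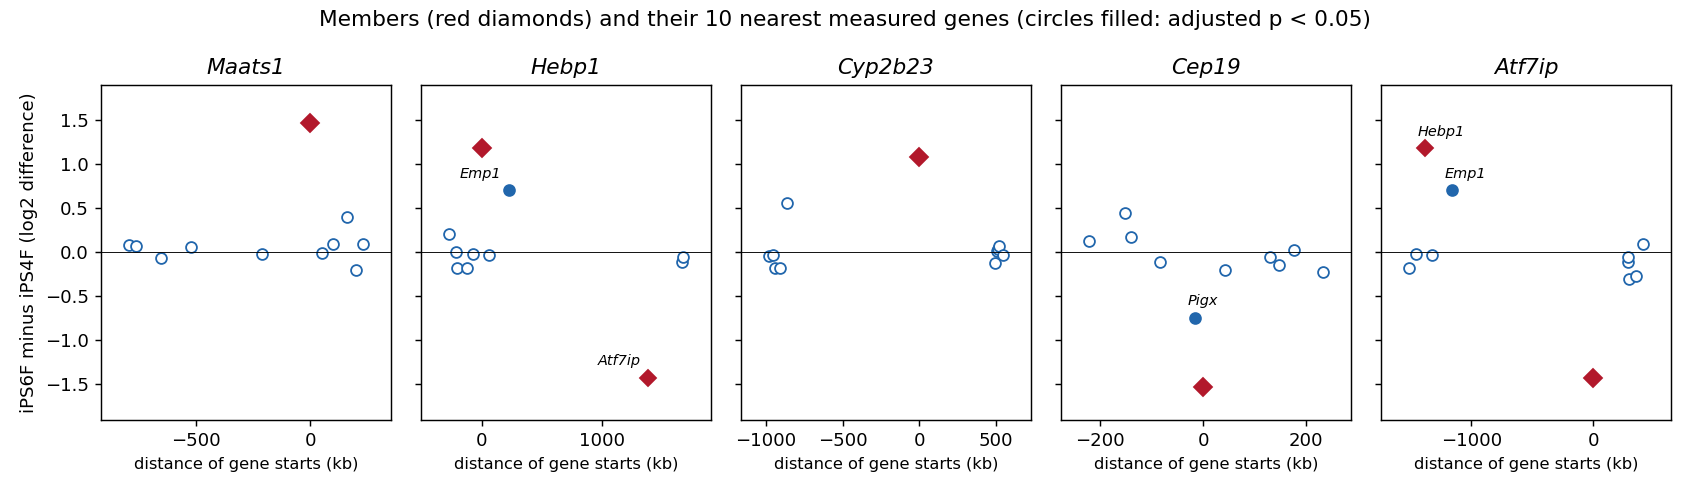
Log2 difference of iPS6F minus iPS4F (vertical axis) for each member, at 0, and its 10 nearest measured genes by distance in kb (horizontal axes). Gene starts on the axes are the lowest coordinates whatever the strand, so Pigx is drawn at -15.4 kb from Cep19. Red diamonds are members, and circles are other genes, filled where the adjusted p was under 0.05. The filled circles are Pigx (-0.75) beside Cep19 and Emp1 (0.70) in the panels of Hebp1 and Atf7ip. The remaining circles lie between -0.31 and 0.56.

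Other genes of the members' pathways were counted from 5 lists, which leave out the members. Of 50 axoneme genes of motile cilia, 15 were measured, and of 57 genes of the ciliary base and intraflagellar transport, 39. None of either list passed between the iPS lines in limma's fit, although 2 and 3 had an unadjusted p under 0.05, and their medians were 0.10 and -0.01 against -0.01 over all genes. Against ESC, 19.5% of all genes were higher and 29.4% lower in the mean of the iPS lines, with a median of -0.06. Of the axoneme genes 2 were higher and 6 lower (median -0.14). Tekt1, a filament protein of the axoneme, fell most (-1.86 ± 0.11, adjusted p = 4.69e-09), from 6.47 ± 0.22 in ESC to 4.48 ± 0.19 in iPS4F and 4.73 ± 0.16 in iPS6F. Maats1 differed from ESC by -0.28 in iPS4F and by 1.19 in iPS6F.

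Of the ciliary base genes, 9 were higher and 13 lower (median -0.11). Cep63, which helps centrioles duplicate, fell by 1.67 on the log2 scale (-1.67 ± 0.13, adjusted p = 4.31e-08) and, like Cep19, was lower in both lines. Its lines read 6.88 ± 0.16 and 6.73 ± 0.24 against 8.47 ± 0.24 in ESC, and so lay closer together than those of Cep19. Ift27, a small GTPase of the transport trains, also fell (-1.12), and Cep97, a cap of the centriole that holds back cilium growth, rose (1.01). Under median scaling, 3 axoneme genes were higher and 1 lower, and 13 base genes higher and 2 lower. When centred, 0 axoneme genes were higher and 4 lower, and 8 base genes higher and 7 lower.

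Of 30 genes that make, carry or break down heme, 24 were measured, and 1 was lower in iPS6F than in iPS4F (2 with an unadjusted p under 0.05, median 0.00). That gene was Bach1, a repressor that leaves DNA when it binds heme. Bach1 read 7.66 ± 0.34 in iPS4F, 6.83 ± 0.22 in iPS6F and 6.27 ± 0.23 in ESC, with a difference between the lines of -0.83 ± 0.17 (adjusted p = 0.0338), opposite in sign to that of Hebp1. Its call ended in 5 of 8 other settings and on leaving out any MEF array, iPS4F array 1 or 2, or iPS6F array 2 or 3, with adjusted p up to 0.435. Against ESC, 8 heme genes were higher and 5 lower (median 0.06), but 14 and 1 under median scaling and 3 and 2 when centred. Bach1 rose by 0.98, and the heme exporter Flvcr1 (-0.98) and the heme and folate carrier Slc46a1 (-0.58) fell, the last with a call lost under median scaling.

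Of 40 genes of cytochrome P450 family 2 and its regulators, 3 were measured, and none passed between the lines in limma's fit (1 with an unadjusted p under 0.05, median 0.16). That 1 was Cyp2s1, at 0.56 ± 0.13 (adjusted p = 0.0619), also a measured neighbour of Cyp2b23 at -863 kb. It passed without background correction. A call of 1 gene of this list, higher in iPS6F, also came with a normal-exponential correction at an offset of 50. The same held without iPS4F array 3 and with the probes of a gene averaged, and the remaining alternatives gave none. Against ESC, 2 of the 3 were higher, Cyp2s1 by 1.16 ± 0.11 (adjusted p = 4.12e-07) and Cyp2c23 by 0.47, with a median of 0.47. Of 34 genes of Setdb1, its partners and methylation of histone H3 at lysine 9, 22 were measured. None passed between the lines in limma's fit (2 with an unadjusted p under 0.05, median -0.00). Setdb1 itself differed between the lines by 0.10 ± 0.13. Its partner Atf7ip, which was picked for this difference, differed by -1.43 in the brighter probe and -0.37 in the second. Against ESC, 7 were higher and 6 lower (median -0.02), but 10 and 0 under median scaling and 5 and 0 when centred. Setdb1 rose (0.67 ± 0.11, adjusted p = 0.000139), as did Cbx5, a reader of that mark (1.10 ± 0.13, 3.20e-06), and Morc2a, an ATPase that works with the HUSH silencing complex, was lower (-0.69), a call lost under median scaling.

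The genes most like each member over the 12 arrays were named by Pearson's correlation with its normalized level, among genes with a standard deviation of at least 0.5. The arrays fall into 4 groups, so each value rests largely on 4 group levels. The alike genes were picked on the same arrays that chose the members. An order of groups that they share with a member follows largely from that choice and carries no weight. Cep19 was most like Dusp6 (0.972), Tcea2 (0.923) and Wrn (0.916), and all 3 had ESC highest and iPS6F lowest. Dusp6, a phosphatase that turns off ERK, read 9.01 in ESC, 8.03 in iPS4F and 7.22 in iPS6F, with 8.51 in MEF. Maats1 was most like Ulk1 (0.909), Crtac1 (0.905) and Ly6g6d (0.904). Cyp2b23 was most like Maats1 (0.898), Eno2 (0.853) and Cd9 (0.846), but Cyp2b23 and Maats1 were both picked for a higher level in iPS6F than in iPS4F, so their likeness draws on the values that chose them.

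Atf7ip was most like Zfp869 (0.895), Bach1 (0.819) and Vps35 (0.819). Zfp869, a zinc finger gene, read 6.40 in iPS4F against 4.79 in ESC and 5.15 in iPS6F. Its high iPS4F level, like that of Atf7ip, is part of the likeness by which it was chosen. Hebp1 had fewer genes like it, with Rps3 at 0.812, Cyp2b23 at 0.634 and Ssbp4 at 0.516. Hebp1 and Cyp2b23 were both picked for a higher level in iPS6F, so their likeness draws on the values that chose them. Rps3 (2.11) and Ssbp4 (0.94) were also higher in iPS6F than in iPS4F. Rps3, a protein of the small ribosomal subunit, read 12.41 in ESC, 12.18 in iPS6F, 11.19 in MEF and 10.07 in iPS4F. Its low iPS4F level, like that of Hebp1, is likewise part of the likeness by which it was chosen.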

How the data were processed

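Per the labels, total RNA was amplified into biotin-labelled cRNA and hybridised to Illumina bead arrays. The deposited table holds, per the file headers, 1 intensity per probe and array, neither background-subtracted nor normalized (64.1 to 21025), with a detection p-value that the authors deposited beside each. A second table of the authors holds log2 values, used as an alternative whose background and scaling steps the sources used here do not give. The submitters' processing notes name BeadStudio 3.2, RMA and lumi.

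Intensities were background-corrected (limma 3.58.1, R 4.3.3) by a normal-exponential model drawn from the detection p-values, with an offset of 16, quantile-normalized and put on log2. The offset shrinks differences of dim probes. Of 45281 probes, 34885 had 1 symbol, 18 several and 10378 none; 17563 probes were kept, standing for 10096 named genes by the brightest probe. Over the 12 arrays 1 mean per group was fitted (lmFit, eBayes), with Benjamini-Hochberg adjustment over all kept probes and a threshold of 0.05. Array number limits the precision. The fit was tested on simulated data. "At least" folds set the brighter group's mean against the higher of the dim probe's own value and the lowest detected value.

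The members and lists were chosen with earlier results of these data known. Named were all member probes, the 3 genes most correlated with each, up to 3 genes of largest change per list and the neighbours past the threshold. The gene table and promoters are RefSeq's (GRCm38.p6). Replicate numbers were taken from the titles. Deviations from the group means correlated at -0.181 to 0.165 between same-numbered arrays of different groups. Between differently numbered ones they correlated at -0.235 to 0.264. No pairing by number was seen, though weak correlations cannot exclude it.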

Additional observations from a re-analysis of the deposited data

Results flagged for a closer look

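In Maats1 and Hebp1, every iPS4F array lay below the ESC mean and every iPS6F array above it. For Maats1 the departures from ESC were -0.28 in iPS4F and 1.19 in iPS6F, a difference of 1.46 on the log2 scale. For Hebp1 they were -0.70 and 0.48, a difference of 1.18. The differences between the lines were not tested, since they chose both genes. Under median scaling, iPS4F stood above ESC in Maats1 (0.22) and level with it in Hebp1.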

How the results depend on the processing

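Over all alternatives the difference between the iPS lines kept its sign for every probe of the members. It ran from 0.72 to 2.31 for Maats1, 0.78 to 1.27 for Hebp1, 0.39 to 2.59 for the brighter Cyp2b23 probe, -2.20 to -0.82 for Cep19 and -1.83 to -1.003 for the brighter Atf7ip probe. No background correction gave the smallest size for Maats1, Cyp2b23, Cep19 and Atf7ip, and the authors' log2 values the largest for Maats1, Hebp1, Cyp2b23 and Cep19.

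Scaling each array to its median shifted the median of all probes by 0.27 in the iPS mean minus ESC and by -0.25 between the lines, and the cause was not tested. It turned Hebp1 in ESC minus MEF (-0.39) and in the iPS mean minus ESC (0.39), the second Atf7ip probe in the latter (0.13), iPS4F minus ESC for Maats1 (0.22), Hebp1 (0.000236) and Cyp2b23 (0.10), and iPS6F minus ESC for Atf7ip (0.25). It ended the ESC minus MEF calls of Cyp2b23 (0.31) and Cep19 (0.14). With the median of all probes centred, chosen after seeing the data, Hebp1 turned in ESC minus MEF (-0.28) and iPS mean minus ESC (0.072), the second Cyp2b23 probe in iPS mean minus ESC (-0.071) and iPS4F minus ESC (-0.31), and the second Atf7ip probe in iPS4F minus ESC (-0.051). The call of Cep19 in ESC minus MEF (0.26) ended. The brighter Cyp2b23 probe in iPS mean minus ESC moved from 0.40 to 0.25, and to 0.84 with the authors' values. The second Cyp2b23 probe in iPS mean minus MEF moved from 0.32 to 0.14.

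Leaving out 1 array at a time gave -0.62 to -0.38 for Atf7ip and -0.012 to 0.044 for Hebp1 in ESC minus MEF, and 0.29 to 0.48 for Cyp2b23 in iPS mean minus ESC. For the second probes it gave -0.0055 to 0.21 for Cyp2b23 in ESC minus MEF and -0.093 to 0.10 for Atf7ip in iPS mean minus ESC.

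Between the lines 107 probes passed, but 41 under median scaling, 14 when centred, 44 with the authors' values and 43 to 191 with 1 array left out, fewest without iPS4F array 2 and most without iPS4F array 3. Requiring detection p under 0.01 on all 12 arrays tests fewer probes in a new fit. That fit gave 7151 calls in ESC minus MEF, against 12437 in the reported setting. It gave 5314 in iPS mean minus ESC, against 8560, and 7525 in iPS mean minus MEF, against 13927. Under median scaling 90.6% of calls in iPS mean minus ESC were higher, against 49.8%, 37.0% in ESC minus MEF, against 53.0%, and 7.32% between the lines, against 34.6% (46.4% without background correction). With the replicate number as a block, 81 probes passed between the lines, and no call of a member changed. The slide as a block was not run, since the tables used here name no slide. The 3 arrays per group limit the precision, and dim probes such as the second ones of Cyp2b23 and Atf7ip are limited by signal over background.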
